A study of Mus musculus with 2 samples.

Results

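Osteoclast precursors with little of the proliferation genes Mki67 and Top2a are described here, in cultures given 5α-dihydrotestosterone (DHT) or vehicle. They are cells that had begun the RANKL programme and had not reached the high Acp5 and Ctsk of maturing osteoclasts. They were chosen by a rule on measured values: barcodes with at least 5000 unique molecular identifiers (UMIs, one per captured RNA molecule), at least 300 genes and at most 10% mitochondrial UMIs were kept. Of these, members had at least 0.1% of their UMIs in Jdp2, Nfatc1 and Tnfrsf11a together, under 0.1% in Acp5 and Ctsk and under 0.03% in Mki67 and Top2a. Limits on other lineages were under 0.03% in C1qa, C1qb and C1qc, under 0.05% in F13a1, Vcan, Ccr2 and Ly6c2, under 0.3% in Mpo, Elane, Prtn3 and Ctsg, and under 3% in S100a8 and S100a9. The rule took 525 of 6766 DHT barcodes and 1129 of 8130 vehicle barcodes that passed the count filters, 1654 of 14896 in all. The libraries held 21428 deposited barcodes.

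The study's title concerns interferon signalling under DHT, a potent androgen that cannot be converted to oestrogen, while osteoclasts form in an inflammatory state. Bone marrow cells came from 1 male C57BL/6J mouse, 3 months old, so both libraries share 1 animal. Both cultures were kept in medium depleted of hormones with 5 ng/mL M-CSF for 48 h, then with 100 ng/mL M-CSF, 30 ng/mL RANKL and 10 ng/mL human TNFα for 24 h. DHT was present at 1 nM throughout in the DHT culture, against an equal volume of ethanol in the vehicle culture. Adherent cells of each culture gave 1 droplet library of 3′ ends of mRNA (10x Genomics v3.1 chemistry). With 1 library per group no test between DHT and vehicle exists. Intervals below are exact 95% intervals (Clopper-Pearson for shares, Poisson for levels, conditional binomial for ratios) and cover counting error only.

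Osteoclasts, the cells that resorb bone, form when myeloid precursors fuse. M-CSF, through its receptor Csf1r, keeps the precursors alive, and RANKL, through RANK (Tnfrsf11a), starts a programme in which NF-κB and AP-1 factors such as Fos lead to Nfatc1, the master regulator of the lineage. Fusion genes (Dcstamp, Ocstamp) and resorption genes (Acp5, which encodes the phosphatase TRAP, and Ctsk, cathepsin K) follow as proliferation stops. Type I interferon acts on this lineage through the receptor Ifnar1/Ifnar2 and factors that include Stat2 and Irf9, and in mice interferon β is known as a brake on osteoclast formation because it lowers Fos protein.

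Whole libraries differed before any cell was chosen. They held 319430510 UMIs (DHT) and 453802415 UMIs (vehicle), with a median of 13838 UMIs per deposited barcode in the DHT library and 43120.5 in the vehicle library. Barcodes with at least 3% of UMIs in S100a8 and S100a9, called neutrophil barcodes below, were 28.0% of barcodes passing the filters with DHT and 12.4% with vehicle. Members themselves were alike in depth, with a median of 48841 UMIs and 6743 genes in the DHT library, against 52121 UMIs and 6758 genes in the vehicle library. Their mitochondrial share had a median of 2.6% with DHT and 2.65% with vehicle. The libraries had 33 barcodes in common, and 0 barcodes were members in both.

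The promoters of Isg15, Oas3 and Slfn5 are shown first, because genes of the interferon response were the largest listed group that differed (below). They are the 3 among the 12 genes of highest DHT over vehicle ratio (below) whose promoter held the motif described next. Oasl2, Irf7, Csta2, Xaf1 and Ddx58, also among the 12, were in the table without a match, which says only that these letters are not in this window. Each run is the 250 bases before the RefSeq transcription start (GRCm38.p6), read 5′ to 3′ on the gene's strand. Capitals mark matches to GAAANNGAAA or its reverse complement TTTCNNTTTC, the core letters of the interferon-stimulated response element, bound by a complex that includes Stat2 and Irf9. The windows are chr4:156200819-156201068 (minus strand) for Isg15, chr5:120777660-120777909 (minus strand) for Oas3 and chr11:82951852-82952101 (plus strand) for Slfn5.
Isg15: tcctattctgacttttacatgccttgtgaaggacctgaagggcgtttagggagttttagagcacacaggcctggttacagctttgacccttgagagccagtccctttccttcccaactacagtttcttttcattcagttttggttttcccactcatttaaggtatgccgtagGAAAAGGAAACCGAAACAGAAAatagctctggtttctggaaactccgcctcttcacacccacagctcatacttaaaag
Oas3: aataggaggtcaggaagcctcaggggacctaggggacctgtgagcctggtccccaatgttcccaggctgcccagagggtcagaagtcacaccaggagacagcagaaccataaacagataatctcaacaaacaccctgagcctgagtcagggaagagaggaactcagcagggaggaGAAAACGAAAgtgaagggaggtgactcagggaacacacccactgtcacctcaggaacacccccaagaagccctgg
Slfn5: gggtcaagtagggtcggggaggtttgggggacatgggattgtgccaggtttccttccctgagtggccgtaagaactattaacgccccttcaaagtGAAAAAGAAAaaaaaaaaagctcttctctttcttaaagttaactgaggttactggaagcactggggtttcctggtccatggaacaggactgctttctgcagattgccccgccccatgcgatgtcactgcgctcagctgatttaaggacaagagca
Isg15 held 3 overlapping matches, the first starting 78 bases before the start site. Oas3 and Slfn5 held 1 match each. Across the 27025 genes of the promoter table, 3.46% held a match on either strand in this window (936 genes). Of the 6344 genes compared in members (below), 5147 matched the table by symbol and 154 of these held one (2.99%). Of the 36 interferon-list genes that were at least 1.5-fold higher with DHT (below), 28 matched the table by symbol and 10 of these held the letters (35.7%). Of the other 48 such genes, 40 matched and 5 held them (12.5%). The letters are a description of the window and show no binding.

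The cells carried the precursor genes in both libraries. Jdp2, an AP-1 family factor needed for osteoclast formation in mice, stood at 1145 CPM (the gene's UMIs per 1000000 UMIs, both summed over the members) with DHT and 1006 CPM with vehicle. Nfatc1 had 519 CPM in the DHT library and 497 CPM in the vehicle library, and Tnfrsf11a had 368 CPM (DHT) and 379 CPM (vehicle). These 3 genes were used by the rule. Plxna4, a semaphorin receptor, and Akap6, a scaffold for protein kinase A, were not. Both were picked as markers with earlier results of these data known, so their levels are a description. Plxna4 had 393 CPM with DHT and 360 CPM with vehicle, and Akap6 had 323 CPM with DHT and 304 CPM with vehicle. With every cell thinned to 5000 UMIs, 67.2% of DHT members (63.0 to 71.2%) and 65.5% of vehicle members (62.7 to 68.3%) held a Plxna4 UMI. In neutrophil barcodes, which should lack Plxna4, 4.06% did with DHT and 4.17% with vehicle at the same depth. Unthinned, 85.7% of DHT members and 86.4% of vehicle members held one, at the median depths above, against 8.38% of DHT neutrophil barcodes (median depth 16082 UMIs) and 10.0% of vehicle neutrophil barcodes (median depth 13015 UMIs).

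Low Mki67 and Top2a did not go with low S phase genes in every cell. Of the members, 186 with DHT (35.4%) and 450 with vehicle (39.9%) had a larger share of their UMIs in 34 S phase genes than the median cycling precursor of the same library, defined by the same rule with at least 0.03% Mki67 and Top2a. Cdc6 and Ccne2 belong to that list, so their levels describe the split and do not test it. In the high S phase members Cdc6, which loads the replication helicase, had 50.8 CPM with DHT and 52.3 CPM with vehicle, and Ccne2, a cyclin of the entry into S phase, had 66.9 CPM (DHT) and 59.5 CPM (vehicle). In the remaining members Cdc6 had 2.62 CPM with DHT and 4.07 CPM with vehicle, and Ccne2 had 11.6 CPM (DHT) and 8.91 CPM (vehicle). The linker histone gene Hist1h1b, made during DNA replication, had 19.6 CPM (DHT) and 29.1 CPM (vehicle) in the high S phase members. In cycling precursors it had 290.4 CPM (DHT) and 403 CPM (vehicle). The remaining members had 5.47 CPM (DHT) and 7.54 CPM (vehicle) of it. Hist1h1b thus stood higher in the high S phase members than in the other members, and lower than in cycling precursors. Because the label of non-cycling cells was not settled by these values, the set is called by its rule, the Mki67/Top2a-low precursors, from here on.

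Some cells lay near the limits. Within 10% of the limits on Jdp2, Nfatc1 and Tnfrsf11a, on Acp5 and Ctsk, and on Mki67 and Top2a, 20 to 32 DHT members and 49 to 74 vehicle members were just inside, and 22 to 30 DHT cells and 45 to 66 vehicle cells were just outside. Their median Acp5 and Ctsk share was 0.0964% (DHT) and 0.0950% (vehicle) inside and 0.104% (DHT) and 0.106% (vehicle) outside. Of the Mki67/Top2a-low precursors, 12% with DHT and 8.33% with vehicle held no UMI of Mki67 or Top2a at all.

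Mki67/Top2a-low precursors made up a smaller share of the DHT library. They were 7.76% (7.13 to 8.42%) of DHT barcodes passing the filters and 13.9% (13.1 to 14.7%) of vehicle barcodes, a ratio of 0.559. Set against the lineage alone the shares were close: they were 32.9% of the 1594 DHT precursors and osteoclasts and 34.2% of the 3298 vehicle ones, a ratio of 0.962. Cycling precursors were 46.1% of that lineage with DHT and 46.7% with vehicle. Osteoclasts with at least 0.1% Acp5 and Ctsk, called Acp5/Ctsk-high below, were 21.0% with DHT and 19.0% with vehicle. The neutrophil barcodes named above stand in the first denominator and not in the second, and the ratio was 0.458 over all deposited barcodes. How far the library's make-up or depth sets the first ratio was not tested.

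Between DHT and vehicle, genes of the interferon response were the largest listed group that differed in the Mki67/Top2a-low precursors. Genes were compared if their level reached 20 CPM in either library, which left 6344. Of these, 84 stood at least 1.5-fold higher with DHT (1.32%) and 3 at least 1.5-fold lower (0.0473%); higher and lower have this meaning throughout. The lists of type I interferon genes and of interferon γ-inducible and antigen-processing genes held 51 of the 6344 genes compared (0.804%) and 36 of the 84 higher genes (42.9%). The other 48 higher genes were in neither list. Among the lower genes were Hmga2, a chromatin protein of proliferating cells (14.8 CPM with DHT and 24.5 CPM with vehicle), and the predicted gene Gm47507. The ratio of Hmga2 was uneven over depth. In 3 equal groups of members by UMIs it was 0.354 in the shallowest, 0.939 (0.763 to 1.15) in the middle and 0.566 in the deepest.

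The largest ratio, that of Csmd1, came from 1 cell. Csmd1 encodes a large membrane protein with complement-like domains and lies on chromosome 8 (15892537 to 17535586, minus strand). The DHT members held 718 Csmd1 UMIs and the vehicle members 24, a log2 ratio of 6.04. A single DHT member, the one with 163378 UMIs, held 699 of the 718. Without each library's top cell the log2 ratio was 0.99. Csta2, a cysteine protease inhibitor of the stefin family, had 861 UMIs with DHT and 345 with vehicle, and 2 DHT members held 58.4% of the DHT UMIs. Its log2 ratio was 2.46 with these cells and 1.39 without the top 2 cells of each library. Of the 87 genes called in either direction, 10 had over 10% of their DHT UMIs in 1 member: Csmd1, Csta2, Slpi, Jak2, Chil3 and the neutrophil genes Ltf, Ngp, Lcn2, Camp and S100a9. Jak2 was 0.47 (log2) without its top cell, under the 1.5-fold limit of 0.58.

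**Figure D1:**
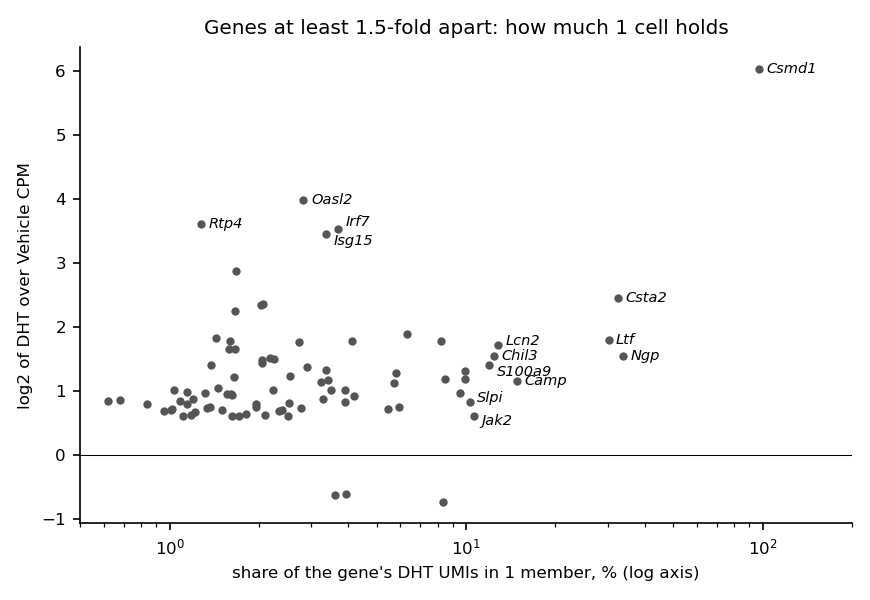
Each point is 1 of the 87 genes at least 1.5-fold apart; the horizontal axis (log) gives the percentage of its DHT UMIs found in the single DHT member with most of them, and the vertical axis the log2 ratio of DHT over vehicle CPM. Csmd1 sits alone at the right with 97.4% of its UMIs in 1 cell, while Oasl2, Rtp4, Irf7 and Isg15 have 1.27 to 3.70% in their top cell.

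Isg15, Irf7, Rtp4 and Oasl2 were spread over many cells. Isg15, a ubiquitin-like modifier (chromosome 4, 156199424 to 156200818), had 88.2 CPM with DHT (interval 84.7 to 91.9) and 8.07 CPM with vehicle (interval 7.36 to 8.83), a ratio of 10.9 (9.90 to 12.1). Irf7, the factor that amplifies interferon production (chromosome 7, 141262706 to 141266481), had 32.4 CPM with DHT and 2.79 CPM with vehicle. Rtp4, a chaperone induced by interferon (chromosome 16, 23520291 to 23614222), had 79.4 CPM with DHT and 6.47 CPM with vehicle. Oasl2, of the oligoadenylate synthetase family (chromosome 5, 114896936 to 114912234), had 23.9 CPM with DHT and 1.5 CPM with vehicle, the highest ratio after Csmd1 (15.9, 12.7 to 20.2). These 4 genes had the highest ratios after Csmd1, so intervals that lie apart between the libraries follow from that choice and test nothing. Isg15 was found in 342 of 525 DHT members and its top cell held 3.36% of its UMIs.

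The same direction held through the sensor, transcription factor and effector genes of the response. Among RNA sensors, Ddx58 (RIG-I) had 40.5 CPM with DHT and 7.98 CPM with vehicle, and Ifih1 (MDA5) had 20.2 CPM (DHT) and 7.25 CPM (vehicle). Among the factors that carry the signal, Irf9 had 38.2 CPM with DHT and 14.4 CPM with vehicle. Stat2 had 12.5 CPM with DHT and 4.75 CPM with vehicle. Among effectors, Oas3 and Oas2, which make the activator of RNase L, had log2 ratios of 2.88 and 2.24. Slfn5 had 85.3 CPM with DHT and 16.5 CPM with vehicle, Bst2 (tetherin) 269 CPM (DHT) and 133 CPM (vehicle), and Ifi27l2a 225 CPM (DHT) and 95 CPM (vehicle). Strongly inducible genes that the vehicle members hardly held were low also with DHT. Rsad2 (viperin) had 310 UMIs (11.6 CPM) with DHT and 7 UMIs (0.119 CPM) with vehicle, and Ifit1 had 291 UMIs with DHT and 10 UMIs with vehicle. A single DHT member held 54.5% of the Rsad2 UMIs and a single one 26.1% of the Ifit1 UMIs, and without each library's top cell the log2 ratios were 5.96 for Rsad2 and 5.89 for Ifit1.

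Counted over the list, 46 of 53 type I interferon genes with at least 2 CPM were at least 1.5-fold higher and 0 lower, with a median log2 ratio of 1.66. Over all 10662 genes at that level the median was 0.05, with 347 higher and 59 lower. Slfn9 (0.27), Tor3a (0.29) and Trim25 (0.40) were the list's lowest by log2 ratio. In the list of interferon γ-inducible and antigen-processing genes, 19 of 29 were higher and 0 lower, with a median of 0.95. B2m, the light chain of MHC class I, had 1175 CPM with DHT and 658 CPM with vehicle. Irgm1, a GTPase of cell-autonomous immunity, had 27.4 CPM (DHT) and 7.95 CPM (vehicle), and Gbp7 had 28.6 CPM (DHT) and 12.7 CPM (vehicle). Tap1, the peptide transporter, had 39.2 CPM with DHT and 23.5 CPM with vehicle. Both lists were chosen with earlier results of these cells known, and their counts are a description.

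**Figure D2:**
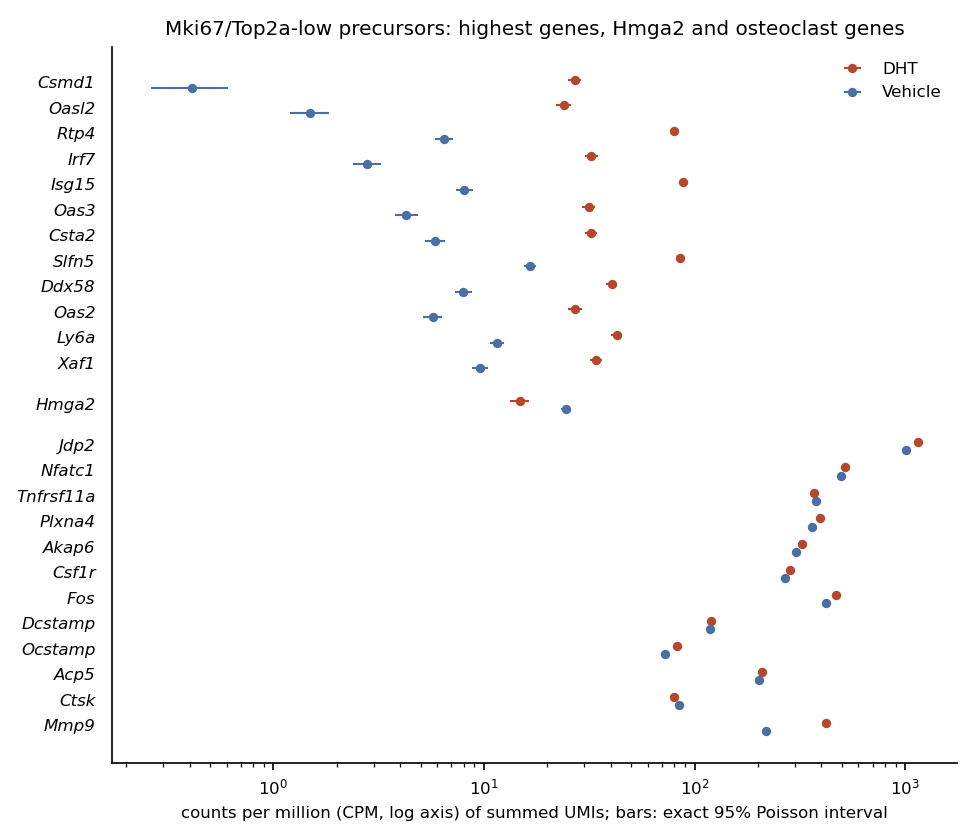
CPM (log axis) of summed UMIs in the Mki67/Top2a-low precursors, DHT points above vehicle points for each gene, with exact 95% Poisson intervals: the 12 highest ratios at the top, Hmga2 in the middle and osteoclast genes below. The 12 highest were chosen by their ratio, so that they lie apart between the libraries follows from that choice and tests nothing. A single DHT member held 97.4% of the DHT UMIs of Csmd1, the highest of them. The osteoclast genes other than Mmp9 lie close together, in cells that the rule matched in part on Jdp2, Nfatc1, Tnfrsf11a, Acp5 and Ctsk.

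Seen cell by cell, the interferon shift covered most of the DHT members. Type I interferon genes took a median of 0.260% of a DHT member's UMIs (quartiles 0.173 and 0.387%) and 0.125% of a vehicle member's (quartiles 0.1 and 0.155%). In the DHT library 301 members (57.3%) lay above the vehicle members' 95th percentile, and 8.76% lay below the vehicle median. The distributions overlapped, and 3.43% of DHT members lay above the highest vehicle member. The 10% of members with most of these UMIs held 27.2% of them with DHT and 20.7% with vehicle. At 5000 UMIs per cell, 28% of DHT members (24.2 to 32.1%) and 3.37% of vehicle members (2.39 to 4.59%) held an Isg15 UMI. Neutrophil barcodes, which also respond to interferon and so give no background for it, held one in 30.6% (DHT) and 6.26% (vehicle).

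The shift was present along the whole range of maturation within the precursors. With under 0.01% Acp5 and Ctsk the median type I interferon share was 0.286% with DHT and 0.134% with vehicle. It was 0.295% (DHT) and 0.129% (vehicle) between 0.01 and 0.03%, and 0.217% (DHT) and 0.108% (vehicle) between 0.03 and 0.1%. The most mature cells thus had the lowest share in both libraries. The median log2 ratio over the list was 1.63, 1.75 and 1.57 in these bins, from the lowest up. In 3 equal groups by UMI depth it was 1.74, 1.61 and 1.67, from the shallowest up. Among members with a high S phase share 44 of 51 type I interferon genes were higher with DHT (median 1.60), and among the others 46 of 53 were (median 1.66).

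**Figure D3:**
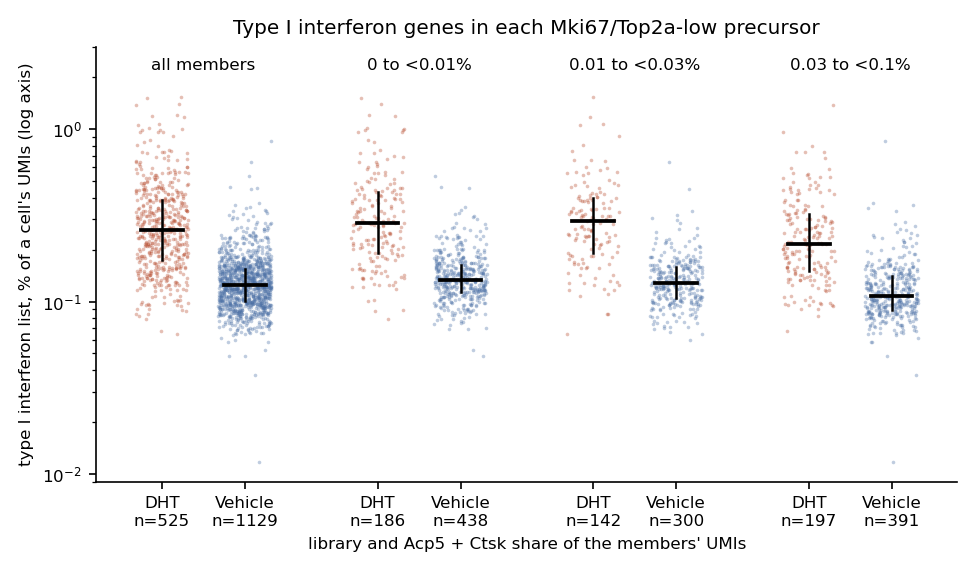
Each point is 1 Mki67/Top2a-low precursor; the vertical axis (log) is the share of its UMIs in type I interferon genes, for all members and for 3 ranges of their Acp5 and Ctsk share, with medians (horizontal bars) and quartiles (vertical bars). DHT medians of 0.217 to 0.295% stand above vehicle medians of 0.108 to 0.134% in all 3 ranges.

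Genes of the interferon pathway itself differed little. Of 15 measured ligand, receptor and kinase genes, 1 was at least 1.5-fold higher (Jak2, which rests on its top cell as given above) and 0 were lower, with a median log2 ratio of 0.10. Ifnar1 had 62.2 CPM with DHT and 52.9 CPM with vehicle, and Ifnar2 had 86.7 CPM (DHT) and 88.7 CPM (vehicle). No UMI of Ifnb1 was seen in either library's members, which, with 3 counts as the limit that a count of 0 allows, permits a UMI in up to 0.571% of DHT members and 0.266% of vehicle members. Of 13 measured steroid response genes 0 were at least 1.5-fold apart. Fkbp5, a common target of steroid receptors, had 27.9 CPM with DHT and 31.2 CPM with vehicle.

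The osteoclast programme was close between the libraries. Members of both were chosen under the same limits on Jdp2, Nfatc1 and Tnfrsf11a and on Acp5 and Ctsk, genes of this programme. Closeness here and in the fusion and resorption genes below is therefore a description of cells matched in part on it. Among RANK, M-CSF and TNF receptors and their adaptors, 0 of 30 measured genes were 1.5-fold apart, with a median log2 ratio of 0.13. Csf1r had 284 CPM with DHT and 268 CPM with vehicle, and Traf6, the adaptor of RANK, had 23.8 CPM (DHT) and 22.0 CPM (vehicle). Of 21 osteoclast transcription factors 0 were 1.5-fold apart (median 0.13): Fos had 468 CPM with DHT and 419 CPM with vehicle, and Mitf had 697 CPM (DHT) and 692 CPM (vehicle). Of 15 genes of ITAM costimulation, the calcium arm of the programme, 0 were 1.5-fold apart, and Trem2, a receptor of that arm, had 182 CPM with DHT and 238 CPM with vehicle (log2 ratio -0.39). Of 16 repressors of the lineage 1 was higher: Id1, with 5.77 CPM with DHT and 3.20 CPM with vehicle. Irf8 had 8.66 CPM under DHT (interval 7.58 to 9.85) and 6.57 CPM under vehicle (interval 5.93 to 7.26). A single DHT member held 16.5% of the Irf8 UMIs, and the log2 ratio was 0.40 with and 0.18 without each library's top cell.

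Fusion and resorption genes were close as well, with 1 exception. Of 17 fusion genes 0 were 1.5-fold apart: Dcstamp had 120 CPM with DHT and 118 CPM with vehicle, Ocstamp had 82.2 CPM (DHT) and 72.5 CPM (vehicle), and Atp6v0d2 had 224 CPM (DHT) and 219 CPM (vehicle). Of 20 resorption genes 1 was higher and 0 lower, with a median of 0.17. This was Mmp9, a matrix metalloprotease, with 419 CPM under DHT (interval 411 to 426) and 219 CPM under vehicle (interval 215 to 222). Mmp14 had 256 CPM with DHT and 173 CPM with vehicle, just under the limit at a log2 ratio of 0.57. Neutrophils also express Mmp9, and in neutrophil barcodes it had 799 CPM with DHT and 548 CPM with vehicle. Among members with under 0.1% S100a8 and S100a9 its log2 ratio was 0.87, against 0.94 in all members. Acp5 and Ctsk, were held under a common limit by the rule, so their levels are given as a description only. Acp5 had 210.0 CPM with DHT and 203 CPM with vehicle, and Ctsk had 80.1 CPM with DHT and 84.1 CPM with vehicle.

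**Figure D4:**
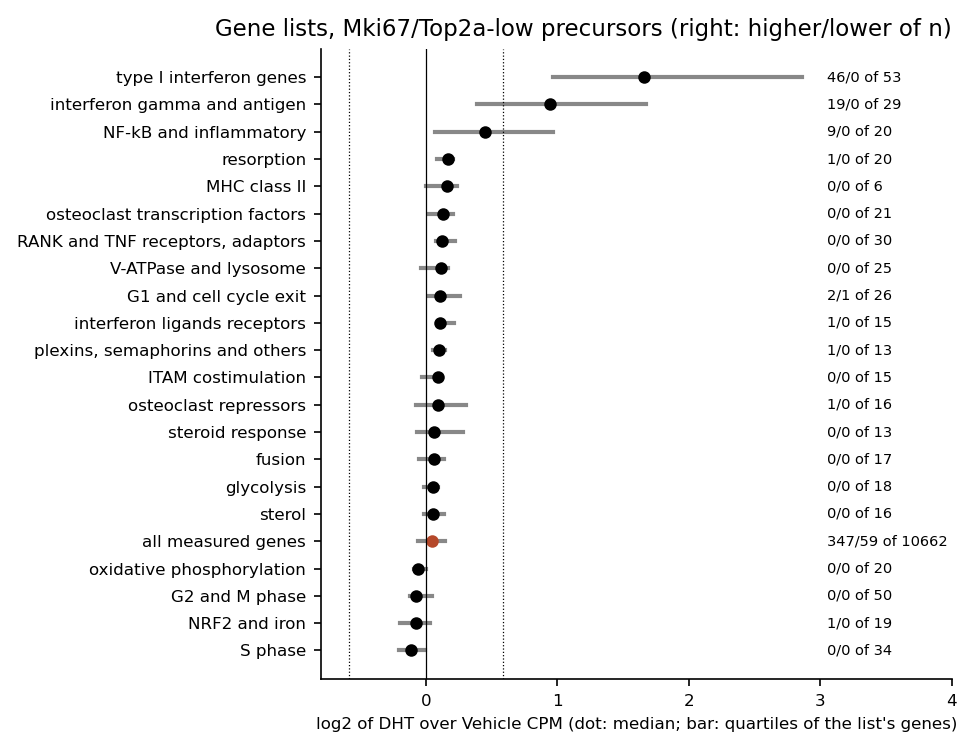
Median (dot) and quartiles (bar) of the log2 ratio of DHT over vehicle CPM over the genes of each list in the Mki67/Top2a-low precursors, with the number of genes at least 1.5-fold higher, lower and measured at the right; dotted lines mark 1.5-fold. Both interferon lists stand at 1.66 and 0.95, the NF-κB list at 0.45 and the other lists between -0.11 and 0.17, beside 0.05 over all measured genes (red dot).

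Cell cycle, stress and metabolic lists stayed within 1.5-fold almost throughout. Of 34 S phase genes and 50 genes of G2 and mitosis 0 were 1.5-fold apart, with medians of -0.11 and -0.07. Of 26 genes of G1 and cell cycle exit 2 were higher: Ccnd2, with 62 UMIs (2.32 CPM) with DHT and 23 UMIs (0.392 CPM) with vehicle, and Btg2. A single DHT member held 32.3% of the Ccnd2 UMIs, and its log2 ratio was 2.57 with and 2.28 without each library's top cell. Cdkn1c was lower, with 1.46 CPM with DHT and 2.42 CPM with vehicle. Cdkn1a, the CDK inhibitor p21, had 181 CPM with DHT and 123 CPM with vehicle (log2 ratio 0.56, under the limit). Of 19 NRF2 and iron genes 1 was higher (Slc7a11, the cystine transporter) and 0 lower. Gclm, a subunit of the first enzyme of glutathione synthesis, had a log2 ratio of -0.34. Oxidative phosphorylation (0 of 20), glycolysis (0 of 18), sterol synthesis (0 of 16) and V-ATPase and lysosome genes (0 of 25) held none 1.5-fold apart. Nor did MHC class II genes (0 of 6), although their share of a cell's UMIs had a 95th percentile of 0.0755% with DHT and 0.0227% with vehicle, with medians of 0.00453% with DHT and 0.00438% with vehicle. A list of plexins, neuropilins, semaphorins and other genes that led precursor clusters in an earlier analysis, with Akap6, had 13 measured genes. Of these 1 was higher: Plxnc1, with 3.60 CPM with DHT and 2.30 CPM with vehicle. It too rested on 1 DHT member, which held 30.2% of its UMIs: its log2 ratio was 0.65 with and 0.17 without each library's top cell.

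Inflammatory genes were mixed. Of 20 NF-κB and cytokine genes 9 were higher and 0 lower, with a median of 0.45. Il1rn, the interleukin 1 receptor antagonist, had 86.6 CPM with DHT and 47.0 CPM with vehicle. The chemokine gene Ccl5, itself inducible by interferon, had 8.99 CPM with DHT and 0.834 CPM with vehicle, and Ccl2 had 8.66 CPM (DHT) and 3.03 CPM (vehicle). A single DHT member held 77.9% of the Ccl5 UMIs and a single one 29.4% of the Ccl2 UMIs. Without each library's top cell the log2 ratio of Ccl5 was 1.31, against 3.43 with it, and that of Ccl2 was 1.12, against 1.51. Ccl9, abundant in osteoclasts, had 1432 CPM with DHT and 1509 CPM with vehicle. The list's median was 0.11 among members with under 0.1% S100a8 and S100a9, and 0.58 when CPM was taken per cell and then averaged. Lcn2, in the list and a neutrophil gene, had 69.0 CPM with DHT and 20.9 CPM with vehicle.

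Markers of neutrophils moved with the library. All 10 were measured and 8 were at least 1.5-fold higher with DHT, among them S100a8 (407 CPM with DHT and 164 CPM with vehicle), Ltf and Ngp. Their summed level was 1193 CPM in DHT members and 463 CPM in vehicle members, 955 CPM (DHT) and 587 CPM (vehicle) in cycling precursors, and 1030 CPM (DHT) and 524 CPM (vehicle) in Acp5/Ctsk-high osteoclasts. Of the 10 markers, 0 were at 0. Neutrophil barcodes held 94015 CPM of S100a8 with DHT and 91832 CPM with vehicle. In them Isg15 had 140.0 CPM with DHT and 14.4 CPM with vehicle, beside 88.2 CPM (DHT) and 8.07 CPM (vehicle) in members. With DHT the median type I interferon share was larger in members with more S100a8 and S100a9: it was 0.226% under 0.05% (224 cells), 0.270% between 0.05 and 0.1% (228 cells) and 0.326% above that (73 cells). With vehicle it was 0.125% (1071 cells), 0.128% (41 cells) and 0.119% (17 cells) in the same bins. The part of neutrophil RNA in this was not tested.

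Markers of other cells had smaller sums. C1q macrophage markers summed to 294 CPM with DHT and 205 CPM with vehicle (3 of 8 measured higher, Cd163 at 0 with DHT), against 4699 CPM (DHT) and 3813 CPM (vehicle) in C1q macrophages. Monocyte markers summed to 104 CPM with DHT and 57.9 CPM with vehicle (4 of 7 higher), and B cell markers to 24.6 CPM (DHT) and 5.04 CPM (vehicle) (3 of 3 higher). Granulocyte and monocyte progenitor markers summed to 33.8 CPM (DHT) and 16.3 CPM (vehicle) (4 of 5 higher) and stromal markers to 10.9 CPM (DHT) and 2.71 CPM (vehicle) (2 of 2 higher). Plasmacytoid dendritic cell markers summed to 354 CPM (DHT) and 217 CPM (vehicle) (1 of 3 higher), dendritic cell markers to 317 CPM (DHT) and 245 CPM (vehicle) (0 of 5, Cd209a at 0 in both) and megakaryocyte markers to 370.1 CPM (DHT) and 284 CPM (vehicle) (0 of 1). Markers of T and NK cells, red cells and mast cells summed to under 1 CPM in both libraries. The part that such RNA has in the other higher genes was not tested.

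Most of the higher genes were higher in neighbouring cell states too. Of the 84, 61 were also at least 1.5-fold higher with DHT in cycling precursors, which is 72.6% of the 84 and 87.1% of the 70 genes higher in cycling precursors (1.07% of 6529 tested, with 0.107% lower). In Acp5/Ctsk-high osteoclasts 61 genes were higher (0.979% of 6231) and 1 lower (0.016%), and 48 of the higher genes were among the 84. All these sets come from the same pair of cultures. C1q macrophages, defined by at least 0.1% C1qa, C1qb and C1qc, had 366 higher genes (5.67% of 6460) and 158 lower (2.45%), on 177 DHT and 71 vehicle cells, and 71 were among the 84. Isg15 stood at 81.4 CPM with DHT and 6.06 CPM with vehicle in cycling precursors, 95.5 CPM (DHT) and 4.45 CPM (vehicle) in Acp5/Ctsk-high osteoclasts, and 246 CPM (DHT) and 15.9 CPM (vehicle) in C1q macrophages. Ms4a7, a macrophage gene, had a log2 ratio of 1.18 in the Mki67/Top2a-low precursors and 0.35 in cycling precursors. Its log2 ratio was 0.72 in Acp5/Ctsk-high osteoclasts and 0.49 in C1q macrophages. Whether these ratios differ was not tested.

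Set against cycling precursors, the members were selected on Mki67 and Top2a, so what follows is a description. Of 6428 genes, 31 were at least 1.5-fold higher in both libraries (0.482%) and 295 lower (4.59%). The higher genes were led by Ltbp1, which binds latent TGF-β (104 CPM in members and 37.9 CPM in cycling precursors with DHT, 104 CPM in members and 49.1 CPM in cycling precursors with vehicle). Ocstamp, of the fusion genes, had 82.2 CPM in members and 39.9 CPM in cycling precursors with DHT, and 72.5 CPM in members and 38.2 CPM in cycling precursors with vehicle. Dcstamp, Ccr1 (a chemokine receptor), Ptpre, Bach2 and Zeb1 were also among the 12 highest. The 12 lowest were mostly histone and mitosis genes: Prc1, of the spindle midzone, had 13.2 CPM in members and 208 CPM in cycling precursors with DHT, and 14.2 CPM in members and 213 CPM in cycling precursors with vehicle. Of 50 genes of G2 and mitosis, 48 stood lower in both libraries, with median log2 ratios of -2.24 (DHT) and -2.17 (vehicle). Of 34 S phase genes 9 were lower and 1 higher, with medians of -0.41 (DHT) and -0.29 (vehicle). Over all 10499 genes at the lists' limit of 2 CPM, 480 were lower in both libraries and 114 higher. Without the members of high S phase share 69 genes were higher and 450 lower.

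Set against Acp5/Ctsk-high osteoclasts, the members were selected on low Acp5 and Ctsk. Of 6325 genes, 345 were higher in both libraries (5.45%) and 308 lower (4.87%), and with TMM scaling 309 were higher and 351 lower. The higher genes were led by P2ry6 (a receptor for UDP), Socs3 (a cytokine signalling inhibitor), C5ar1 (the C5a receptor) and Pgf (placental growth factor). Ccnd1, cyclin D1, had 540 CPM in members and 118 CPM in osteoclasts with DHT, and 453 CPM in members and 104 CPM in osteoclasts with vehicle. The lower genes were led by Mt3, a metallothionein, with 1.5 CPM in members and 83.7 CPM in osteoclasts with DHT, and 2.38 CPM in members and 117 CPM in osteoclasts with vehicle. Myo1d, Nyap2, Ablim1 and Cd200 followed beside Ctsk. Of 21 resorption genes 16 were lower, of 18 fusion genes 8 were lower and 2 higher, and of 16 repressors 7 were higher and 1 lower. S phase genes were higher in 24 of 34, and 10 of 42 type I interferon genes were higher (medians 0.44 with DHT and 0.51 with vehicle). Over all 10527 genes at the lists' limit of 2 CPM, 849 were higher in both libraries and 558 lower (medians 0.02 with DHT and 0.04 with vehicle).

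Set against C1q macrophages, the members were selected on precursor genes and on low C1q. Of 6540 genes, 870 were higher in both libraries (13.3%) and 786 lower (12%). With TMM scaling in place of total counts the split was 597 higher and 913 lower, since that scaling moved every log2 ratio by -0.11 in both libraries. Plxna4 had 393 CPM in members and 9.83 CPM in macrophages with DHT, and 360.0 CPM in members and 7.16 CPM in macrophages with vehicle. Ltbp1, Ghr (the growth hormone receptor), Atp6v0d2 and Car2 (carbonic anhydrase 2, which makes acid for resorption) were among the 12 highest. Of 49 type I interferon genes 32 were lower in members in both libraries. Of 24 NF-κB and cytokine genes 15 were lower, among them Ccl2, Ccl4 and Ccl7. Over all 10660 genes at the lists' limit of 2 CPM, 1528 were higher in both libraries and 1343 lower.

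Among themselves, the precursors spanned a range of maturation. With DHT 35.4, 27.0 and 37.5% of members held under 0.01%, 0.01 to 0.03% and 0.03 to 0.1% Acp5 and Ctsk, and with vehicle 38.8, 26.6 and 34.6%. Between the upper and the lower of these bins, 155 of 6261 genes were at least 1.5-fold higher in both libraries (2.48%) and 140 lower (2.24%). The split uses Acp5 and Ctsk, and the genes named were chosen after their values were seen. Atp6v0d2, a V-ATPase subunit needed for fusion in mice, had 385 CPM in the upper bin and 70.8 CPM in the lower with DHT, and 380 CPM in the upper bin and 76.2 CPM in the lower with vehicle. Src, the kinase of the sealing zone, had 108 CPM in the upper bin and 30.4 CPM in the lower with DHT, and 94.0 CPM in the upper bin and 27.6 CPM in the lower with vehicle. Ppargc1b, a coactivator of mitochondrial biogenesis, Slc9b2, Plcb4 and Ext1 were higher in the upper bin as well. Lyz2, lysozyme, had 1140 CPM in the upper bin and 3419 CPM in the lower with DHT, and 1141 CPM in the upper bin and 3007 CPM in the lower with vehicle. The myeloid genes Spp1, Mrc1, Ccr2, Dab2 and Fli1 were lower in the upper bin too. Of 20 resorption genes 12 were higher in the upper bin and 0 lower. Over all 10483 genes at the lists' limit of 2 CPM, 321 were higher in the upper bin in both libraries and 374 lower. The 6 MHC class II genes had median log2 ratios of the upper over the lower bin of 0.44 with DHT and -0.72 with vehicle, but rested on few cells: a single member held 37.7% of the H2-Eb1 UMIs with DHT and 16.3% with vehicle.

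**Figure D5:**
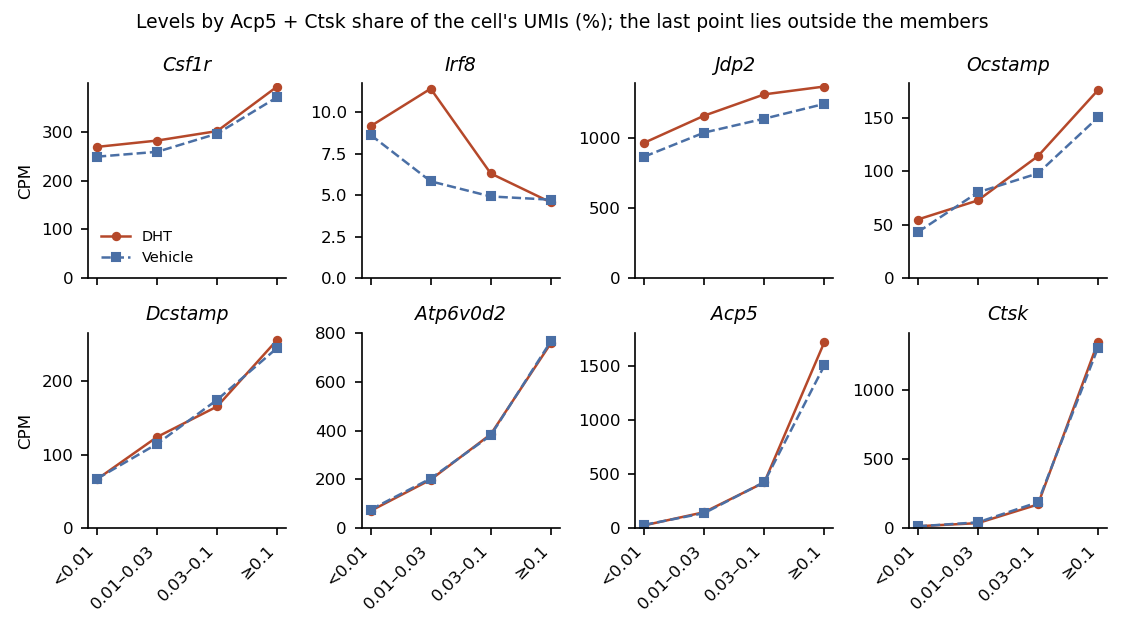
CPM of 8 genes in Mki67/Top2a-low precursors binned by the Acp5 and Ctsk share of their UMIs, with Acp5/Ctsk-high osteoclasts as the last point, for DHT (solid line, circles) and vehicle (dashed line, squares). Dcstamp, Atp6v0d2 and Ocstamp climb from bin to bin in both libraries with the lines close together; Acp5 and Ctsk define the bins.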

How the data were processed

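The deposited files of 1 DHT and 1 vehicle library hold raw UMI counts per gene and barcode, made by the authors with Cell Ranger 7.0.1, per the submitters' processing notes, which name GRCh38 and mm10 without a role. Counts were summed over the members of a library and divided by all their UMIs (CPM). A gene was compared if either library reached 20 CPM, and called higher or lower at 1.5-fold; list genes needed 2 CPM, and a side at 0 was set to 3 counts. Shares of cells with a UMI used counts thinned to 5000 UMIs per cell. Doublets were scored with Scrublet (scanpy 1.11.5, expected rate 0.08) and kept; it called 166 of 9469 DHT barcodes and 135 of 10135 vehicle barcodes, of which 10 and 8 were members. TMM (edgeR 4.0.16) and median-of-ratios scaling (DESeq2 1.42.0) served as alternatives, with no test. Positions follow GENCODE vM21 (GRCm38) by gene ID; promoters are from RefSeq (GRCm38.p6), matched by symbol. The ratio and its calls were tested on simulated data.

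Both samples come from 1 mouse, and cells are not replicates. The members, gene lists and markers were chosen with earlier results of these data known. Named genes are the 12 highest and 12 lowest ratios per comparison (fewer where fewer passed), genes at the ends of each list or past 1.5-fold, and a short fixed set; predicted, ribosomal, mitochondrial, immunoglobulin and sex-linked marker genes were left out. Of the genes named here, Ms4a7, Gm47507 and those of the maturation bins, of the S phase split and of list members under 20 CPM or inside the ends of a list were chosen after their values were seen. Some genes that these rules take are not reported here.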

Additional observations from a re-analysis of the deposited data

How the results depend on the processing

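With 1 library per group no replicate can be left out, and intervals cover counting error only. No paired analysis was possible because each group has a single library. The share ratio of DHT over vehicle (0.559) was 0.676 with at least 20000 UMIs per barcode, 0.488 with S100a8 and S100a9 under 0.1%, 0.458 over all deposited barcodes and 0.885 over precursors, osteoclasts and C1q macrophages; the other 9 alternatives gave 0.553 to 0.609. The 84 higher and 3 lower genes became 129 and 10 at 10 CPM, 35 and 1 at 50 CPM, 4580 and 1184 with no filter, and 45 and 0 at 2-fold. Without members of high S phase share 87 were higher and 6 lower. The other alternatives gave 72 to 98 higher genes and 2 to 4 lower. TMM and median-of-ratios scaling each kept 75 of the 84. The alternative that drops each gene's top member was chosen after seeing the data and kept 81. Type I interferon genes at least 1.5-fold higher numbered 46 or 47 under 16 alternatives, with a median log2 ratio of 1.59 to 1.76. Members against cycling precursors gave 19 higher and 137 lower genes at 50 CPM, and 69 and 450 without members of high S phase share, also added after seeing the data. At 50 CPM there were 164 higher and 188 lower against Acp5/Ctsk-high osteoclasts, and 554 and 489 against C1q macrophages. Of 2128 gene ratios under alternatives, 308 moved beyond the counting interval of the value reported and 0 of the called ones changed sign. Fewer genes are tested at a higher CPM limit; the cause of the other changes was not tested.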
